A study of Mus musculus with 4 samples.

Results

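The genes described here are those of the synaptonemal complex and of its HORMAD axis proteins: Sycp1, Sycp2, Sycp3, Syce1, Syce2, Syce3, Tex12, Hormad1 and Hormad2. They were chosen by name, and all 9 were found among the 32285 genes of the matrices. Single-cell RNA-seq of testes, dissociated with the interstitium removed, was done at postnatal day 15 (P15) on 2 wild-type and 2 Meioc-null mouse pups, one testis per pup, in 2 batches that each held a wild-type and a Meioc-null littermate. Mice of both genotypes were on a C57BL/6N background, carried one Hspa2 tm1Dix allele and were homozygous for a ROSA26 tdTomato reporter whose stop cassette was intact, so the controls carry these alleles too. MEIOC is a germ-cell protein that destabilizes a set of mRNAs and is needed for an orderly entry into meiosis. The question asked of these data is when the structural genes of the meiotic chromosome axis switch on during spermatogenesis and whether their levels differ without MEIOC.

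In meiotic prophase each pair of sister chromatids is folded along a protein axis, and the axes of homologous chromosomes are then zipped together by the synaptonemal complex. SYCP2 and SYCP3 form the lateral elements, which are the axes within the complex. SYCP1 forms the transverse filaments that bridge them, and SYCE1, SYCE2, SYCE3 and TEX12 form the central element in the middle. HORMAD1 and HORMAD2 sit on axes that have not yet synapsed, where they promote break formation, homolog pairing and checkpoint signalling, and they are removed from synapsed axes with the help of TRIP13. Staining for SYCP3 and SYCP1 is the classical marker of leptotene, zygotene and pachytene spermatocytes.

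The 9 genes lie on 8 chromosomes (GENCODE vM21 on GRCm38). Sycp1 lies at chr3:102818499-102936100 on the minus strand and Hormad1 at chr3:95559677-95587671 on the plus strand of the same chromosome. Sycp2 lies at chr2:178345293-178407685 (minus), Sycp3 at chr10:88459569-88473236 (plus), Syce1 at chr7:140777229-140787852 (minus), Syce2 at chr8:84872111-84888221 (plus), Syce3 at chr15:89390174-89410503 (minus), Tex12 at chr9:50556819-50561325 (minus) and Hormad2 at chr11:4345814-4441105 (minus). Sycp3 shares exon sequence with Chpt1 on the opposite strand, and no exon of the other members overlaps an exon of another annotated gene. A UMI is read from the 3′ end of a transcript, so the values say nothing about isoforms or about protein.

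Promoter windows of 300 bases, from 250 before to 50 after the annotated start, were taken from RefSeq (GRCm38.p6) for all 9 genes, which gave 12 windows because some genes have 2 starts. They are shown because the study turns on regulators with known DNA motifs: STRA8-MEIOSIN (searched as CNCCTCAG), E2F proteins (TTCCCGC) and the E-box of MGA and MAX (CACGTG), each on both strands. Of 32851 mouse promoter windows of this length, 7.94% hold the first motif, 4.6% the second, 7.15% the third and 0.0335% all of them. Among the members the first was in 4 genes (Sycp1, Syce2, Tex12, Hormad2), the second in 4 (Sycp3, Syce2, Tex12, Hormad1), the third in 5 (Sycp1, Sycp3, Syce2, Tex12, Hormad1), and none in Sycp2, Syce1 or Syce3. Syce2 and Tex12 held all of them. The windows of Syce2, Tex12, Sycp3 and Hormad1 follow, read 5′ to 3′ along the gene, with matches in capitals; in Syce2 the STRA8-MEIOSIN and E2F matches overlap and form 1 run of capitals. A match is a description of letters and not evidence of binding.
Syce2, chr8:84872008-84872307 (+ strand): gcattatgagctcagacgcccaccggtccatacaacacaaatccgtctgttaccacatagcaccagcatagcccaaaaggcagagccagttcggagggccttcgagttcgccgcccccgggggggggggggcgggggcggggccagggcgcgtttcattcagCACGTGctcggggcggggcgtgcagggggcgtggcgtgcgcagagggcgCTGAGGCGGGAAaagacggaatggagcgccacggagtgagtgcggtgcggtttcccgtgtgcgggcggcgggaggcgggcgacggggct
Tex12, chr9:50561219-50561518 (- strand): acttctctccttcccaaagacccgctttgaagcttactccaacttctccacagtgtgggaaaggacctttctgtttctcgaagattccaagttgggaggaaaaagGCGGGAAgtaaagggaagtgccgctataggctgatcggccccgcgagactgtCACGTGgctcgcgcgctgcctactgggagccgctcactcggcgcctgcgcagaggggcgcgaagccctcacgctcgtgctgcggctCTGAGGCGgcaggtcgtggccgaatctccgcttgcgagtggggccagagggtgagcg
Sycp3, chr10:88459337-88459636 (+ strand): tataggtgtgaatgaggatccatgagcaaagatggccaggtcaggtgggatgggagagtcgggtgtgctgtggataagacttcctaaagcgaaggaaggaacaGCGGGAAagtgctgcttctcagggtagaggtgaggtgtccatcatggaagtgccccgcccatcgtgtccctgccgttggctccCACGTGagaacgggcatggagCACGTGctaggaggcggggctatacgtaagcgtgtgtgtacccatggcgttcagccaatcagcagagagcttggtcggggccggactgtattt
Hormad1, chr3:95559427-95559726 (+ strand): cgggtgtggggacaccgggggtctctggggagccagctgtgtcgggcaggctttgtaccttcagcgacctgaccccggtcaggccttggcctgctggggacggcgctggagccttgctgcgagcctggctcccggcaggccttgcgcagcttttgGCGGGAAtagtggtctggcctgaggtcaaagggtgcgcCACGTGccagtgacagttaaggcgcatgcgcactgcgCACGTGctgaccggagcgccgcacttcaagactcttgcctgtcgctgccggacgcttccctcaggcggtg

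The 4 libraries held 158291903 to 190455307 UMIs over 11986 to 16486 barcodes. After the limits of more than 1000 genes and under 10% mitochondrial UMIs, and removal of 690 to 996 likely doublets per library, 5644 to 7505 cells per library remained, of which 4255 to 6008 were germ cells. Germ cells of the wild type formed 11 clusters in one linear order, and Meioc-null cells were placed on that order; members and the other listed genes were kept out of the genes used for clustering. By markers, cluster 1 held undifferentiated spermatogonia-like cells, clusters 2 to 6 differentiating spermatogonia-like cells and clusters 8 to 10 early spermatocyte-like cells. Cluster 7 had no name by the marker rule and was led by Stra8, Hist1h2aa, Prdm9 and Gm4969 (Meiosin), and cluster 11, also unnamed, was led by Ldhc, Fabp9 and Piwil1. Cluster 11 held 253 and 301 wild-type cells and no Meioc-null cell, and cluster 10 held 275 and 680 wild-type but only 69 and 93 Meioc-null cells. Any 2 libraries shared 12 to 16 barcodes that passed the limits, at most 0.253% of the smaller one. Meioc UMIs were as frequent in Meioc-null as in wild-type cells of cluster 7 (678 and 651 CPM against 636 and 685 CPM, where CPM is a gene's UMIs scaled to a total of 1000000 UMIs over the cells of a library in a cluster), so 3′ counts do not check this allele; which part of the gene it removes was not stated in any source read for this work.

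In every library of cluster 1 the CPM of each member was above its highest somatic value, by 1.23 to 3.71 times at its lowest. The shares of cells with a UMI of Sycp2 or Hormad2, given below, overlapped with those in Sertoli cells. From cluster 6 to cluster 7, the cluster with the highest Stra8 level, each member rose in every library. Since a gene's length and 3′ end affect its UMIs, genes are compared as percent of their own highest wild-type cluster and not by CPM. Free RNA from broken germ cells reaches droplets of other cells, so the background was read in Sertoli and peritubular myoid cells, which do not enter meiosis. Onset was taken as the first cluster in which both wild-type libraries passed 10% of the gene's highest cluster mean and also the highest value in any somatic sample. Clusters were drawn from these same cells, so the order below is a description with no test.

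Sycp1, the transverse filament gene, climbed over a long stretch. Its wild-type level was 279 and 322 CPM in cluster 1, against 17.0 to 138 CPM in the Sertoli and myoid cells of all libraries, and 1010 and 1363 CPM in cluster 6. At cluster 7 it stood at 1203 and 1620 CPM, only 1.19-fold above cluster 6 in the mean. It then rose to 2538 and 3454 CPM in cluster 8 and to its highest level, 4286 ± 863 CPM (SD, n = 2), in cluster 9. Its onset was thus in cluster 3 and its level passed 50% of the highest in cluster 8. Within each genotype the library of batch 2 lay above that of batch 1 in every cluster for this gene, and its levels in clusters 9 and 10 overlapped between libraries.

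The lateral element genes Sycp2 and Sycp3 had their onset in cluster 7 by the rule. Sycp2 was at 53 and 45 CPM in cluster 1, where the somatic maximum was 35 CPM, and at 148 and 164 CPM in cluster 6. It reached 431 and 500 CPM in cluster 7, 1261 and 1460 CPM in cluster 8 and 1492 ± 203 CPM in cluster 9. Sycp3, from 493 and 576 CPM in cluster 6, rose 2.75-fold to 1402 and 1537 CPM in cluster 7. Its highest level was 5033 ± 467 CPM in cluster 10, above clusters 8 and 9 in both libraries, and it dropped to 49.8% of this in cluster 11. The onset in cluster 7 was decided by a narrow margin: in cluster 6 the means were already at 10.4% and 10.6% of the highest level, and wild-type replicate 1 alone fell short of the limit, with 147.7 CPM against 149.2 CPM for Sycp2 and 492.7 CPM against 503.3 CPM for Sycp3.

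The central element genes divided in how long they stayed up. Syce1, Syce2 and Tex12 all had their highest level in cluster 8 (526 ± 42, 1246 ± 36 and 748 ± 31 CPM). By cluster 10 they had dropped to 27.0%, 15.5% and 36.1% of that level. In cluster 11 Syce1 and Tex12 stood again at 67.6% and 58.5%, whereas Syce2 remained at 16.5%. Syce3 instead had its highest level in cluster 9, like Sycp1 and Sycp2, with 907 ± 134 CPM there and 76.45% of that in cluster 10. All of them passed the onset rule in cluster 1, at 12.3% to 17.65% of their highest level, where the lowest library was 2.12 to 3.71 times the highest somatic value. The level of 50% was passed in cluster 7 for Syce1, Syce2 and Tex12 and in cluster 8 for Syce3.

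The HORMAD genes, like Sycp3, reached their highest level in cluster 10. Hormad1 was at 52 and 57 CPM in cluster 1, only 1.23 times the highest somatic value at its lowest, and at 139 and 170.5 CPM in cluster 6. It rose 3.37-fold to 476 and 569 CPM in cluster 7, the largest step of any member there, and rose again between clusters 9 and 10, 2.18-fold and 2.32-fold in the libraries. In cluster 3 one wild-type and one Meioc-null library lay just under the highest somatic value of 42.3 CPM. Hormad2 reached 98.1 ± 0.96 CPM in cluster 10, with onset in cluster 2. This onset was decided by a narrow margin around the limit of 9.81 CPM. Hormad2 was at 10.95 and 8.15 CPM in cluster 1, where wild-type replicate 2 alone fell short, and at 10.76 and 10.14 CPM in cluster 2. It had 73.1% of its highest level in cluster 7 already, where Hormad1 had 32.6%.

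**Figure D1:**
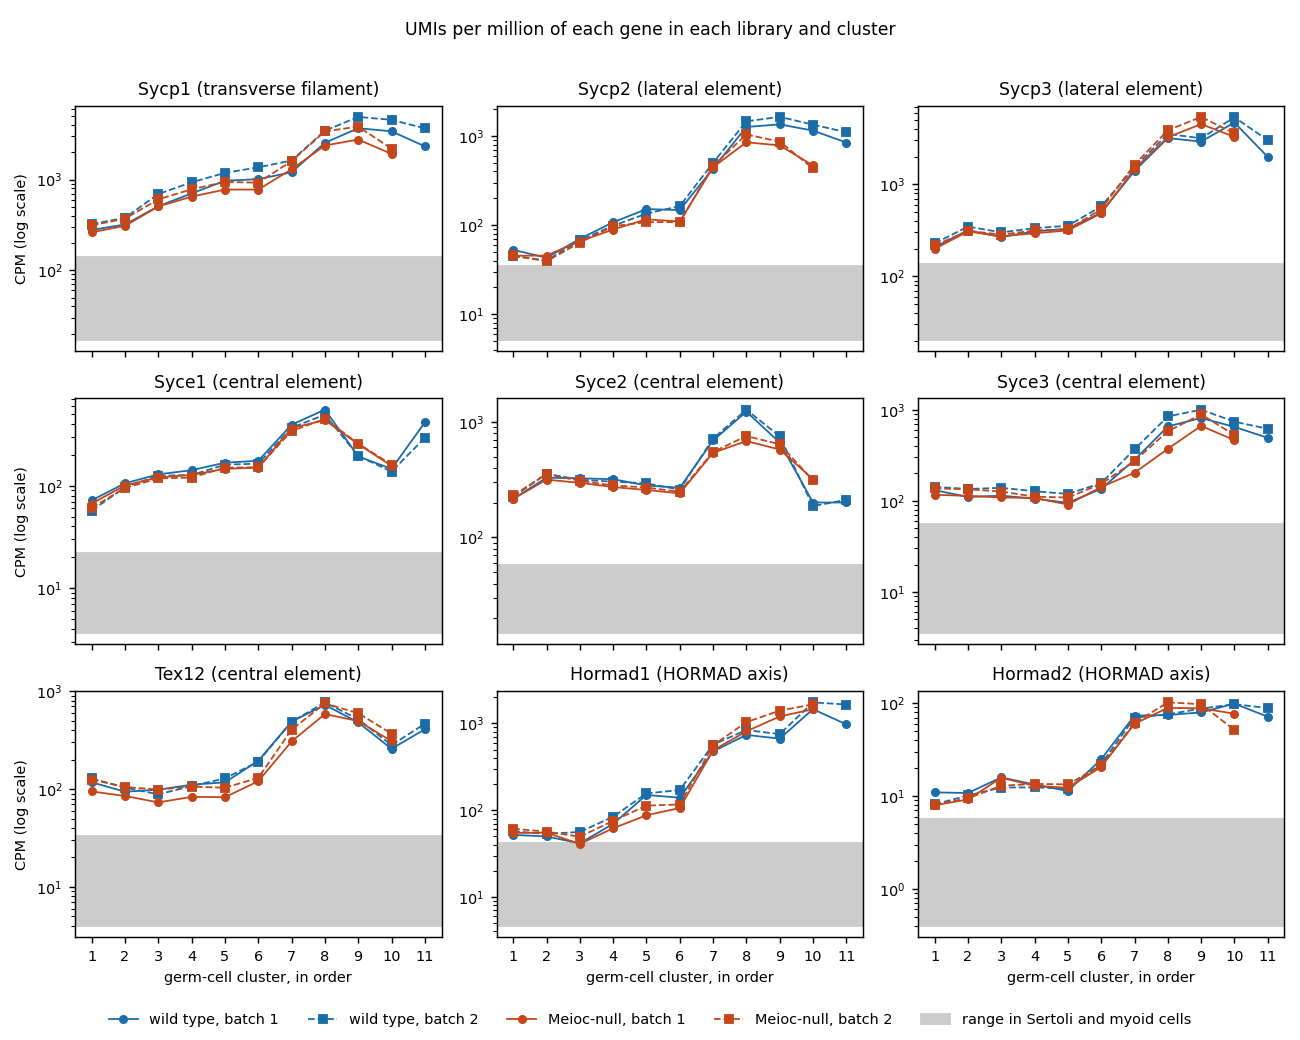
CPM of each of the 9 genes (log axis) in the 11 germ-cell clusters, one line per library (blue wild type, orange Meioc-null, circles batch 1, squares batch 2), with the range in Sertoli and myoid cells as a grey band. Every line rises between clusters 6 and 7, wild-type Syce1, Syce2 and Tex12 turn down after cluster 8, and Hormad1 has its highest level in cluster 10.

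Of the 9 members, 6 had their onset before cluster 7, the cluster with the highest Stra8 level. This count rests on the narrow margin of Sycp2 and Sycp3. Hormad1, also with onset in cluster 7, fell short in cluster 6 through wild-type replicate 1 alone (139.2 CPM against a limit of 160.1 CPM, with 170.5 CPM in replicate 2). The count also rests on the limit: it was 9 at 5% of the highest cluster, 3 at 25% and 0 at 50%. The 50% level was passed in cluster 7 by Syce1, Syce2, Tex12 and Hormad2, in cluster 8 by Sycp1, Sycp2, Sycp3 and Syce3, and in cluster 10 by Hormad1.

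**Figure D2:**
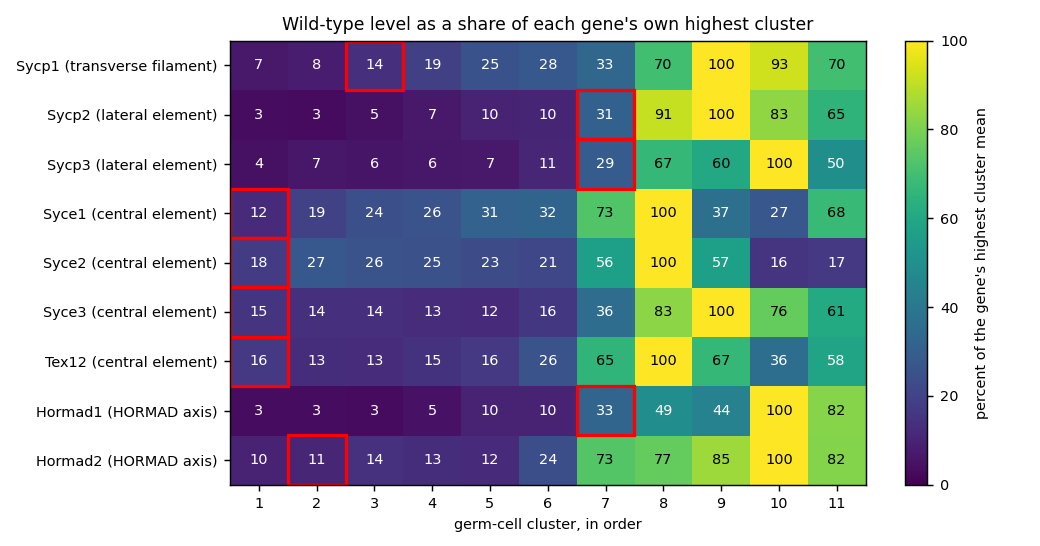
Mean wild-type CPM of each gene (rows) in each germ-cell cluster (columns) as percent of the gene's highest cluster, with the onset cluster outlined in red. Values are under 33% in every gene up to cluster 6, and reach 100% in cluster 8, 9 or 10.

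Counted per cell, the number of members with a UMI rose up to cluster 8. With each cell thinned to 2000 UMIs, wild-type cells of cluster 1 had a UMI of 1.86 and 1.97 of the 9 genes on average, against 0.67 to 1.02 in Sertoli cells and 0.11 to 0.33 in myoid cells of the 4 libraries. Means of 3.22 and 3.53 were found in cluster 6, rising to 5.34 and 5.62 in cluster 7. Cluster 8 had 6.75 and 6.97. Sycp3 alone had a UMI in 61.3% and 64.9% of wild-type cells in cluster 6 and in 90.9% and 92.8% in cluster 7, with 17.6% to 23.2% in Sertoli and 2.96% to 8.065% in myoid cells. In cluster 1 Sycp2 had a UMI in 7.74% to 11.9% of cells over the 4 libraries, against 2.60% to 12.9% of Sertoli cells. Hormad2 had a UMI in 1.29% to 3.30% of cluster 1 cells, against 0% to 2.64% of Sertoli cells. Sertoli cells are shallow (median 2290.5 to 3635 UMIs), and 32 to 172 of them per library were left out as under 2000 UMIs. Both Meioc-null libraries had a lower mean number of members per cell than both wild-type libraries in cluster 4 (2.36 and 2.60 against 2.61 and 2.79), cluster 5 (2.60 and 2.77 against 2.91 and 3.00), cluster 6 (2.90 and 2.98), cluster 7 (4.96 and 5.11), cluster 8 (6.27 and 6.68) and cluster 10 (5.46 and 5.38), and the genotypes overlapped in clusters 1 to 3 and in cluster 9 (6.05 and 6.57 against 6.08 and 6.33). With cells thinned to 4000 UMIs the genotypes stayed apart in clusters 5 to 8, and were also apart in clusters 1 and 3. They then overlapped in cluster 4 (3.80 and 4.06 in Meioc-null against 3.94 and 4.18) and cluster 10 (6.90 and 6.61 against 6.67 and 6.80). In cluster 9 both Meioc-null libraries were then higher (7.38 and 7.66 against 7.305 and 7.36). Other genes were not counted this way. With 2 libraries per genotype an exact two-sided permutation test cannot give a p under 0.333, so no p is given for these means.

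**Figure D3:**
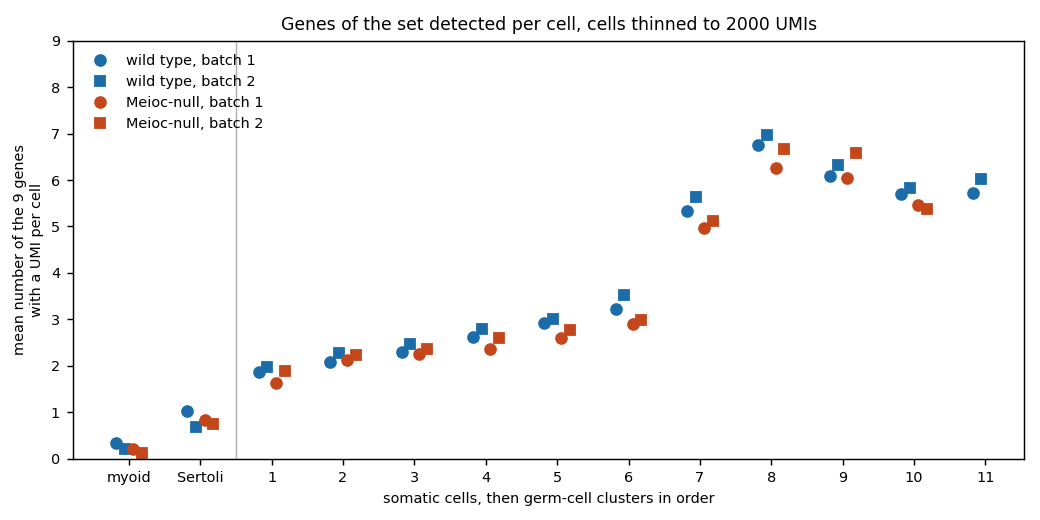
Mean number of the 9 genes with a UMI per cell, cells thinned to 2000 UMIs, in peritubular myoid cells, Sertoli cells and the germ-cell clusters, one point per library (blue wild type, orange Meioc-null). Points lie at or under 1.02 in somatic cells and at 4.96 to 5.62 in cluster 7.

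Across the 22 wild-type sums of a library and a cluster, the levels of the members were alike to very different degrees. On log2(CPM + 10), Pearson's r over the 36 pairs had a median of 0.883, with 0.976 for Sycp3 and Hormad2 and 0.248 for Syce2 and Hormad1. No r of Syce2 with another member was above 0.627. Outside the set, out of 6193 genes, the nearest profiles were those of Senp2 and Unc50 for Sycp1 (r = 0.976 and 0.971), Ero1lb and Trim41 for Sycp2 (0.986 and 0.985), Zfp654 and Iqcb1 for Sycp3 (0.979 and 0.977) and Qk and Zfp654 for Hormad1 (0.983 and 0.975). Iqcb1 and Mdc1 were nearest to Hormad2 (0.978 and 0.972), Chchd6 and Aup1 to Syce1 (0.949 and 0.944), Rapgef6 and Exoc6b to Syce2 (both 0.975), Hfm1 and Rad51ap2 to Syce3 (0.982 and 0.980) and Supt3 and Hsf2bp to Tex12 (0.984 and 0.978). These points share libraries and a common course of development, and the correlations are descriptive.

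Without MEIOC the members moved in different directions at different stages. Wild type was compared with Meioc-null in clusters 1 to 10 by edgeR's quasi-likelihood test on UMIs summed per library, with Benjamini-Hochberg adjustment over all genes tested in a cluster; a gene passed at an adjusted p under 0.05 and a log2 fold change (wild type over Meioc-null) beyond 0.1. Of 86 tests of a member in a cluster 17 passed: 13 had the higher level in wild type and 4 in Meioc-null. As each batch was a littermate pair, the same test with the litter as a block compares littermates, and 33 then passed (27 higher in wild type, 6 in Meioc-null), among them the same 17. Calls made only with the block are named as such below. Variance was moderated over all tested genes in both fits, so very small p-values, with or without the block, rest on that more than on spread among the few pups.

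In clusters 1 to 4 no member passed in either fit or with DESeq2, and none had an unadjusted p under 0.05. Of all genes tested there, 0%, 0.0231%, 0.0256% and 0% passed in clusters 1 to 4 (58 to 172 genes per cluster at an unadjusted p under 0.05, and 2 or 3 passed by DESeq2). Members' log2 fold changes lay between -0.09 and 0.22 in these clusters. In cluster 5 the background was again 0% (341 genes at an unadjusted p under 0.05, and 4 passed by DESeq2). No member passed there, with 3 at an unadjusted p under 0.05, but with the litter block Sycp1, Sycp2, Tex12 and Hormad1 were higher in wild type, against 6.4% of all genes that passed with it. Hormad1 had the largest of these differences, with 150 and 156 CPM in wild type against 87.3 and 113 CPM without MEIOC (log2 fold change 0.63 ± 0.15 SE, adjusted p = 0.688, and 1.07e-11 with the block). In the fit without the block, leaving out 1 library moved Sycp1 from 0.36 to 0.16 (wild-type replicate 2) or 0.56 (Meioc-null replicate 2), and leaving out Meioc-null replicate 1 or 2 moved Tex12 from 0.42 to 0.23 or 0.66 and Hormad1 to 0.41 or 0.89.

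In cluster 6, the last before the Stra8 maximum, Sycp2 and Tex12 were lower without MEIOC. These were 2 of the 8 members tested, where 1.44% of all genes passed and 0.284% passed as higher in wild type. Tex12 was at 195 and 191 CPM in the wild type against 120 and 130 CPM (0.64 ± 0.11, adjusted p = 0.00499). Sycp2 was at 148 and 164 CPM against 110 and 108 CPM (0.53 ± 0.11, adjusted p = 0.0196). For both genes the genotypes did not overlap. Sycp1 (0.50 ± 0.21) and Hormad1 (0.50 ± 0.13) passed only with the block, under which 4 members and 7.98% of all genes passed (adjusted p = 1.9e-05 and 5.25e-05). Without the block, leaving out wild-type replicate 2 gave 0.23 for Sycp1 and 0.31 for Hormad1, and leaving out Meioc-null replicate 1 gave 0.325 for Sycp1. In Sertoli and myoid cells Tex12 was at 7.20 to 22.4 CPM in the wild type against 4.00 to 32.9 CPM, and Sycp2 at 11.7 to 35.2 CPM against 5.12 to 23.7 CPM; the part of free RNA in these differences was not tested. The call of Sycp2 in cluster 6 was lost with DESeq2 and without wild-type replicate 2 (log2 fold change 0.42).

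At the Stra8 maximum, in cluster 7, Syce2 and Tex12 passed without the block, while Syce1 and Syce3 of the central element did not. Syce2 was at 689 and 715 CPM in wild type, against 539 and 548 CPM (0.42 ± 0.14, adjusted p = 0.0278). Tex12 was at 491 and 488 CPM against 307 and 405 CPM (0.50 ± 0.14, adjusted p = 0.0168). They were 2 of 9 members tested, both higher in wild type, where 10.8% of all genes were called in that direction and 26.6% in either. Syce3 (0.49 ± 0.27) and Hormad2 (0.29 ± 0.11) were added with the block (adjusted p = 1.24e-06 and 0.00872), as part of 42.9% of all genes. Syce3 also passed with DESeq2 without a block (adjusted p = 0.0334). Its value was 0.25 without wild-type replicate 2 or Meioc-null replicate 1 and 0.78 without Meioc-null replicate 2. Sycp1, Sycp2, Sycp3 and Hormad1 were within 0.09 of 0 on the log2 scale here and overlapped between genotypes. The step up from cluster 6 for Sycp1 was 1.19-fold in both wild-type libraries and 1.67-fold and 1.73-fold in Meioc-null, and for Hormad1 it was 3.34-fold to 3.42-fold against 4.62-fold to 4.81-fold. Syce2 lost its call when any one library was left out (log2 fold change 0.35 to 0.49), as did Tex12 without Meioc-null replicate 1 (0.27, and 0.77 without Meioc-null replicate 2). With no detection filter neither gene passed (adjusted p = 0.10 and 0.091).

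In cluster 8, at the maximum of Syce1, Syce2 and Tex12, Syce2 had its largest difference. Its level was 1221 and 1271 CPM in wild type, against 681 and 752 CPM (0.89 ± 0.15, adjusted p = 6.55e-05). Sycp2 was at 1261 and 1460 CPM against 849 and 1039 CPM (0.62 ± 0.17, adjusted p = 0.00457), and Syce1 at 555 and 496 CPM against 439 and 451 CPM (0.33 ± 0.12, adjusted p = 0.0263). With the block Sycp1 (0.15), Syce3 (0.76) and Tex12 (0.26) also passed as higher in wild type and Hormad2 (-0.26) as higher in Meioc-null. These 3 and 7 of 9 members compare with 48.6% of all genes without the block (23% higher in wild type) and 61.6% with it. The calls of Syce1, without wild-type replicate 1, wild-type replicate 2 or Meioc-null replicate 1, and of Sycp2, without wild-type replicate 2 or Meioc-null replicate 1, were lost (0.27 to 0.38 and 0.44 to 0.47). Syce1 also lost its call with no detection filter (adjusted p = 0.079), with no doublet removal (-0.101, the opposite direction) and with at least 8 clusters required (0.0384). Keeping doublets merged clusters 8 and 9, and requiring at least 8 clusters merged cluster 8 with 63.61% of the wild-type cells of cluster 9. Of the values called only with the block, leaving out Meioc-null replicate 1 or 2 moved Tex12 to 0.05 or 0.49, and Syce3 to 0.43 or 1.15. Hormad2 moved to -0.11 without Meioc-null replicate 2 and to -0.39 without Meioc-null replicate 1, and Sycp1 ranged from -0.13 to 0.48.

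In cluster 9, 3 members were higher without MEIOC and 1 was lower. Hormad1 was at 667 and 751 CPM in wild type, against 1202 and 1403 CPM without MEIOC (-0.88 ± 0.17, adjusted p = 4.5e-06). Sycp3 was at 2917 and 3174 CPM against 4523 and 5415 CPM (-0.71 ± 0.21, adjusted p = 0.00263), and Syce1 at 194 and 196 CPM against 255 and 258 CPM (-0.40 ± 0.12, adjusted p = 0.00265). In none of these did the genotypes overlap. Sycp2 went the other way, at 1348 and 1636 CPM against 784 and 864 CPM (0.86 ± 0.18, adjusted p = 1.13e-05). Of the 9 members 3 were thus higher in Meioc-null, where 28.4% of all genes were, and 1 in wild type, where 27.4% were (55.8% in either direction); with the block 7 passed, as did 61.6% of all genes, with Sycp1 (0.39), Syce2 (0.22) and Syce3 (0.23) added as higher in wild type. Without wild-type replicate 2 these 3 stood at 0.12, 0.09 and 0.03, without Meioc-null replicate 1 at 0.14, 0.12 and 0.01, and without Meioc-null replicate 2 at 0.68, 0.34 and 0.49. The call of Sycp3 was lost without wild-type replicate 1 or Meioc-null replicate 2 (-0.61 and -0.53), and that of Syce1 without wild-type replicate 1 (-0.35). Both calls were also lost where clusters 8 and 9 merged, the second time only in part: Sycp3 stood at -0.444 with no doublet removal and at -0.376 with at least 8 clusters required, and Syce1 at -0.101 and, turned in direction, at 0.0384.

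In cluster 10, the last with Meioc-null cells, 5 members were lower and 1 was higher without MEIOC. Sycp2 had the largest difference of any member, at 1149 and 1341 CPM in wild type, against 467 and 432 CPM (1.57 ± 0.17, adjusted p = 1.18e-09). Sycp1 was at 3398 and 4543 CPM against 1917 and 2188 CPM (1.05 ± 0.21, adjusted p = 5.5e-05), and Hormad2 at 98.8 and 97.4 CPM against 77.1 and 51.4 CPM (0.75 ± 0.16, adjusted p = 0.00012). For all of these the wild-type libraries lay above both Meioc-null libraries. Hormad2 was still called without Meioc-null replicate 2, at 0.49.

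Sycp3 in cluster 10 was at 4703 and 5364 CPM in wild type, against 3283 and 3585 CPM (0.65 ± 0.21, adjusted p = 0.00761), the opposite of its difference in cluster 9. Among clusters 1 to 10 its highest mean was 5033 CPM in cluster 10 of wild type and 4969 CPM in cluster 9 of Meioc-null. The highest cluster was also earlier in Meioc-null for Sycp2 (8 against 9) and Hormad2 (8 against 10), and the same in both genotypes for the other members. Syce3 was at 648 and 739 CPM against 463 and 528 CPM (0.58 ± 0.16, adjusted p = 0.0019). Syce2 was the exception, at 200 and 187 CPM in wild type, against 320 and 311 CPM (-0.61 ± 0.12, adjusted p = 3.75e-05). From cluster 9 to 10 Syce2 went to 0.303 and 0.249 of its level in the wild-type libraries and to 0.556 and 0.487 in the Meioc-null ones. The call of Sycp3 was lost without wild-type replicate 2 or Meioc-null replicate 1 (0.51 and 0.55) and that of Syce3 without wild-type replicate 2 (0.44). With at least 8 clusters required both were lost (0.195 and 0.287). The matching cluster then held 400 and 960 wild-type and 205 and 268 Meioc-null cells, against 275 and 680 and 69 and 93 in the main run. Tex12 (-0.24 ± 0.13) passed as higher in Meioc-null only with the block (-0.05 without Meioc-null replicate 2, -0.39 without Meioc-null replicate 1), and Hormad1 (0.14 ± 0.19) in neither fit. The 6 members that passed (7 with the block) compare with 62.6% of all genes (67.9% with the block), 31.4% with the higher level in wild type and 31.2% in Meioc-null.

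**Figure D4:**
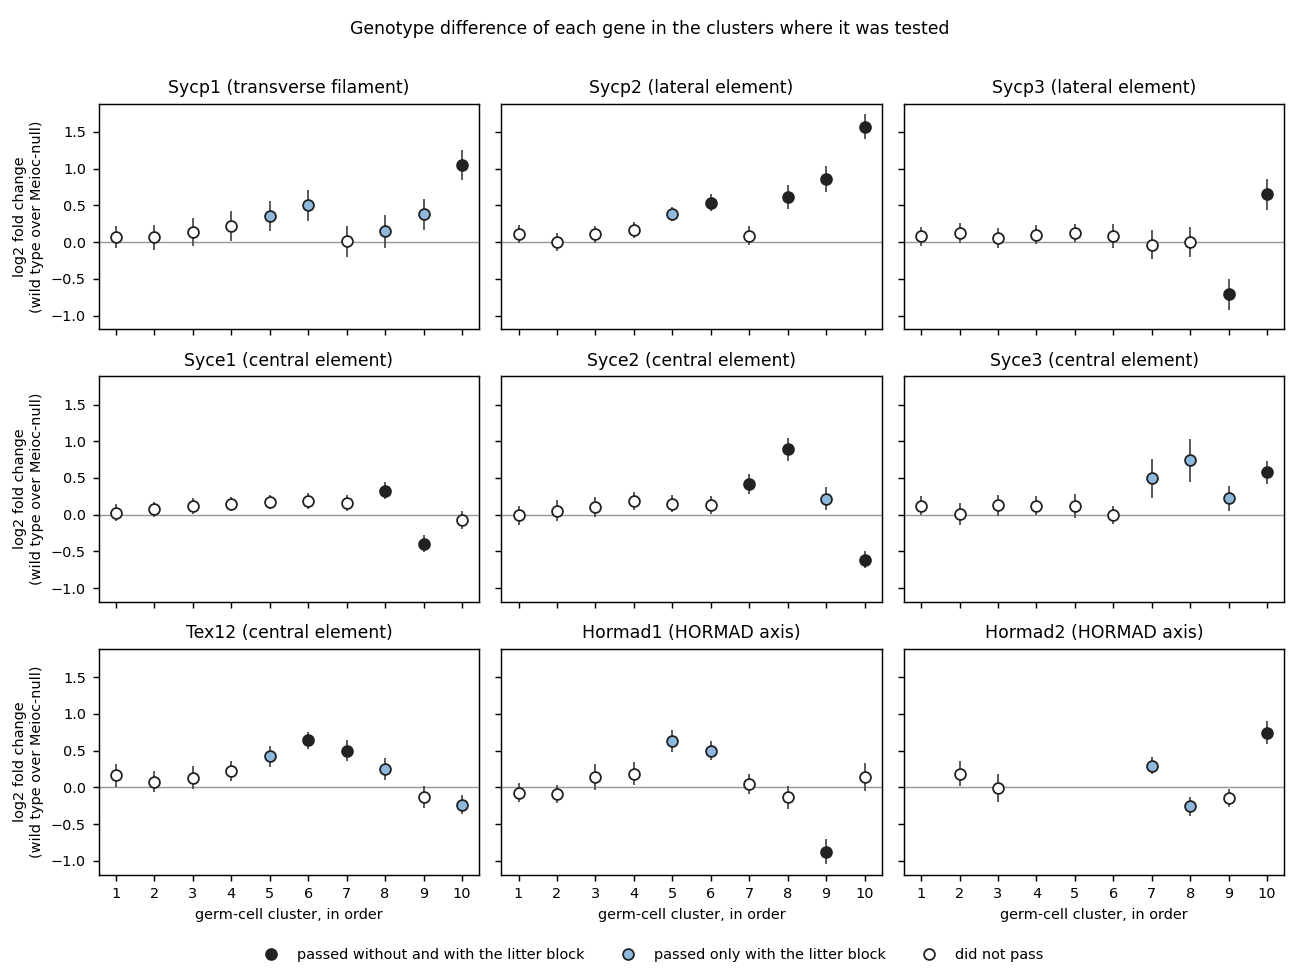
Log2 fold change (wild type over Meioc-null, bars 1 SE) of each gene in clusters 1 to 10 where it was tested. Black points passed the edgeR test, blue ones passed only with littermates as a block, and open ones did not pass; Sycp2 reaches 1.57 in cluster 10, while Sycp3 and Hormad1 lie at -0.71 and -0.88 in cluster 9.

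Stage genes as well differed between genotypes within a cluster, and did so before cluster 8. Stra8, the retinoic acid-induced gene of meiotic entry, was at 75.7 and 80.2 CPM in wild type, against 287 and 231 CPM, in cluster 3. In cluster 5 Stra8 was at 87.8 and 77.7 CPM against 153 and 106 CPM, and Gm4969 at 13.6 and 14.1 CPM against 6.96 and 7.74 CPM. In cluster 6 Stra8 was at 409 and 407 CPM against 739 and 598 CPM, and Gm4969 at 19.9 and 23.2 CPM against 10.6 and 10.9 CPM. In cluster 7 Gm4969 was at 89.6 and 101 CPM against 65.3 and 69.6 CPM. Stra8 was at 594 and 584 CPM in wild type, against 1675 and 1815 CPM, in cluster 8. In cluster 10 it was at 13.6 and 10.7 CPM against 337 and 280 CPM. Gm4969 was at 1.44 and 1.54 CPM against 86.5 and 77.1 CPM in that cluster, and Prdm9, the methyltransferase that marks break sites, at 6.98 and 6.55 CPM against 33.4 and 20.1 CPM. Kit, at 135 and 165 CPM in cluster 7 of wild type, was at or under 6.68 CPM in all libraries in clusters 9 and 10. Piwil1, a pachytene marker, was at 59.8 and 26.1 CPM in wild-type cells of cluster 10, against 0.86 and 1.12 CPM. Its background was also higher in wild type, at 18.1 and 8.23 CPM in Sertoli cells against 0.77 and 0.47 CPM, and the part of free RNA in the difference was not tested. The background of Stra8 was higher in Meioc-null, where Sertoli cells held 89.1 and 74.9 CPM (17.9 and 26.6 CPM in wild type) and myoid cells 32.5 and 15.0 CPM (13.4 and 9.74 CPM). In Sertoli cells Gm4969 was at 1.02 and 1.15 CPM against 3.61 and 2.84 CPM, and Prdm9 at 3.89 and 5.55 CPM against 14.4 and 8.06 CPM. What free RNA added to the germ-cell values was not tested. The genotypes did not overlap for Stra8 in clusters 2 to 10, with the higher level in Meioc-null each time, nor for Gm4969 in cluster 2 (higher in Meioc-null), clusters 5 to 7 (higher in wild type) and clusters 8 to 10 (higher in Meioc-null). Within a cluster a difference of stage and a difference of level at one stage cannot be told apart. Meioc-null cells that match no wild-type stage, if present, were not set apart. When the cells were placed without the 6231 genes called in any cluster, 15 of the 17 calls stood, and Sycp3 (log2 fold change 0.42, adjusted p = 0.079) and Syce3 (0.365, adjusted p = 0.055) in cluster 10 did not. This placing moved Meioc-null cells between clusters. Cluster 8 then held 646 and 585 of them (374 and 394 before), cluster 9 held 279 and 286 (401 and 407) and cluster 10 held 152 and 214 (69 and 93). The clusters themselves stayed as drawn with those genes.

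Whether a member's genotype difference itself changed between cluster 7 and cluster 10 was tested as an interaction in edgeR with library as a term, in which 64.1% of 5528 genes passed. The SE and p-values of this test also rest on variance moderated over all genes more than on spread among the few pups. For Sycp2 the log2 difference rose by 1.47 ± 0.07 (SE, adjusted p = 8.02e-21), for Sycp1 by 1.02 ± 0.06 (adjusted p = 9.67e-19), for Sycp3 by 0.66 ± 0.05 (adjusted p = 8.37e-14) and for Hormad2 by 0.45 ± 0.15 (adjusted p = 0.0117). It fell by 1.05 ± 0.08 for Syce2 (adjusted p = 1.4e-14), by 0.75 ± 0.08 for Tex12 (adjusted p = 1.11e-10) and by 0.25 ± 0.09 for Syce1 (adjusted p = 0.0167). The 7 of 9 members that passed compare with 64.1% of all genes, and the share of all genes in each direction was not counted. Only the 2 end clusters entered the test. Sycp3 stood at -0.71 in cluster 9, outside its values of -0.03 in cluster 7 and 0.65 in cluster 10. For Syce3 (0.08 ± 0.08, adjusted p = 0.412) and Hormad1 (0.08 ± 0.06, adjusted p = 0.251) no change was called. The call of Hormad2 was lost without wild-type replicate 2 (0.40) or Meioc-null replicate 2 (0.09) and stood at 0.76 without Meioc-null replicate 1, and that of Syce1 without wild-type replicate 1 or Meioc-null replicate 2.

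Proteins that work with these members on the axis were followed as a list of 22 genes, of which 21 were found: meiotic cohesin, the HORMAD-bound break machinery, telomere attachment factors and other synapsis proteins. In clusters 1 to 5 none passed (3 at an unadjusted p under 0.05, in cluster 5, and none with DESeq2). In cluster 6, 2 of 13 tested passed, Stag3 and Hsf2bp, both higher in wild type. Of all genes seen in 25% or more of the cells in both genotypes, 1.13% passed there. Genes that reached the detection limit of 25% of cells in one genotype alone entered the test through that genotype. They are left out of the counts that follow: 1, 2, 0 and 3 genes in clusters 7, 8, 9 and 10. Of those detected in both genotypes 8 of 19 were called in cluster 7, 7 of them toward the wild type. Cluster 8 had 17 among 19 (14 toward wild type), cluster 9 had 11 among 18 (7) and cluster 10 had 9 among 14 (7). Under the same limit in both genotypes, the calls made up 23.7%, 45.3%, 52.4% and 57.4% of all genes in clusters 7, 8, 9 and 10. The partners' counts in clusters 9 and 10 were near these shares. How all genes under this limit divided by direction was not counted, so the partners' counts toward wild type have no background.

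Among genes of the list detected in both genotypes, Spo11 and Terb1 had the largest called differences in cluster 10. Spo11, the enzyme that makes meiotic breaks, was at 61.8 and 60.2 CPM in wild type, against 13.7 and 22.3 CPM (1.79 ± 0.21, adjusted p = 6.33e-09). Terb1, which attaches telomeres to the nuclear envelope, was at 52.8 and 57.8 CPM against 18.8 and 17.9 CPM (1.70 ± 0.21, adjusted p = 1.27e-08). Rec114, an axis-bound partner of the break machinery, was at 4.11 and 4.33 CPM against 20.55 and 18.4 CPM, and Majin, a telomere partner of Terb1, at 12.7 and 10.9 CPM against 39.4 and 31.8 CPM. Both entered the test only through Meioc-null cells (a UMI in 29.6% and 39.5% of these and in 6.18% and 14.55% of wild-type cells). As the filter took them from the genotype where they were high, their values are given as a description with no test.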

How the data were processed

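P15 testes were profiled on the 10x Chromium 3′ platform, one library per pup. The deposited values are raw UMI counts per gene and barcode; per the labels and the study's methods, the authors made them with Cell Ranger 4.0.0 on mm10/GRCm38 (the study then removed doublets with scds). No correction for free RNA was applied here. Barcodes with more than 1000 genes and under 10% mitochondrial UMIs were kept, and doublets were removed by Scrublet score (scanpy 1.11.5) at 0.8% per 1000 barcodes. Wild-type germ cells were clustered by the Leiden method on 2000 variable genes and 30 components, after centring each library on the wild-type library of its batch, and all germ cells took the majority cluster of their 30 nearest wild-type cells (99.2% of wild-type cells took their own). Cell types were named from fixed markers. UMIs were summed per library and cluster, where every library had at least 50 cells, and edgeR 4.0.16 was run on genes seen in 25% or more of the cells in one of the genotypes (quasi-likelihood, TMM, Benjamini-Hochberg); SE is the log2 fold change over the root of F. DESeq2 1.42.0 served as an alternative. The main fit had no batch term, as in the study. The labels give each batch as one littermate pair, so the replicate number pairs the libraries, and across genes the differences between batches correlated between genotypes (r = 0.272 to 0.662 in clusters 1 to 10). The pups of a genotype were 2 animals, so p-values rest on 2 libraries each. On counts simulated for cluster 10 (6950 genes), 79 of 100 genes changed by 1 on the log2 scale and 100 of 100 changed by 2 were recovered, with 10 false calls. The simulation gave every gene the same relative spread between libraries and no litter effect, and changed only these genes, equally in each direction. In the data 62.6% of genes were called in that cluster, so these rates do not carry over to the real counts. Promoters were read from RefSeq tables (GRCm38.p6) and positions from GENCODE vM21; the authors used vM23. The named genes were all members, the 4 largest called differences of the partner list in cluster 10, stage genes and the 2 most alike genes per member. Members and lists were chosen with earlier results of these data known. Speedya of the partner list was not found. Alternatives covered scaling, filters, doublets, clustering, placing and each library left out.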

Additional observations from a re-analysis of the deposited data

Results flagged for a closer look

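The genotype difference of 7 of the 9 members changed between cluster 7 and cluster 10 by the test of the interaction, which 64.1% of all genes tested also passed, so the members' share is near that of all genes. These results are listed because the effect of genotype differed between stages. The change in log2 fold change (wild type over Meioc-null) was 1.47 for Sycp2, 1.02 for Sycp1, 0.66 for Sycp3, 0.45 for Hormad2, -0.25 for Syce1, -0.75 for Tex12 and -1.05 for Syce2.

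Barcodes over the mitochondrial limit were not used in any comparison, yet they held member UMIs. There were 1732 to 2876 such barcodes per library, and the summed level of the 9 genes in them was 1051 CPM in the lowest library and 1969 CPM in the highest. Within the limit it was 296 to 497 CPM in Sertoli cells, 76 to 191 CPM in myoid cells and 3419 to 5547 CPM in germ cells. What these barcodes hold was not tested.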

How the results depend on the processing

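Of 616 values of members in clusters 6 to 10 under 14 alternatives, 498 kept direction and call, 45 lost the call, 46 gained one and 27 changed sign, 2 of these for called pairs. Of the 17 calls, 8 were kept under 13 alternatives (Bonferroni left out): Tex12 in cluster 6, Syce2 in cluster 8, Sycp2 and Hormad1 in cluster 9, and Sycp1, Sycp2, Syce2 and Hormad2 in cluster 10. With the replicate block, which pairs littermates, there were 33 calls (27 toward the wild type), and it took no call away. Bonferroni adjustment over genes and clusters left 1 call, Sycp2 in cluster 10, toward the wild type, and 0 toward Meioc-null. Without each library in turn the calls numbered 12 to 21, with 8 to 18 toward the wild type and 2 to 6 toward Meioc-null, and 5 to 7 members passed the test of a change between stages. The lone library of a genotype was then assumed to vary like the other genotype. Members with onset before cluster 7 numbered 3 at a limit of 25% and 0 at 50%.

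Sign changes (log2 fold change) without doublet removal, which merged clusters 8 and 9, were -0.000264 for Sycp1 in cluster 7 and, in cluster 8, -0.444 for Sycp3, -0.101 for Syce1 and -0.0264 for Tex12. Requiring at least 8 clusters merged cluster 8 with only 63.61% of the wild-type cells of cluster 9. Sign changes there were -0.376 for Sycp3 in cluster 8, 0.0384 for Syce1 and 0.0368 for Tex12 in cluster 9 and -0.0222 for Hormad1 in cluster 10. Placing without called genes gave 0.163 for Sycp3 in cluster 7. Leaving out each library in turn gave ranges across 0 for Sycp1 (-0.263 to 0.25 in cluster 7, -0.132 to 0.48 in cluster 8), Sycp2 (-0.0664 to 0.231 in cluster 7), Sycp3 (-0.0748 to 0.238 in cluster 6, -0.156 to 0.0987 in cluster 7, -0.153 to 0.184 in cluster 8), Syce3 (-0.141 to 0.154 in cluster 6), Tex12 (-0.286 to 0.0518 in cluster 9), Hormad1 (-0.134 to 0.21 in cluster 7, -0.337 to 0.101 in cluster 8, -0.0365 to 0.301 in cluster 10) and the change of Syce3 between stages (-0.0889 to 0.207). Without the block only Syce1 was called among these, and Sycp1 and Tex12 in cluster 8 were called with it; beyond the merged clusters, the cause was not tested. A mitochondrial limit of 5% left no cluster with 50 cells in every library, so neither its tests nor its onsets are given. Other scalings moved the median of all genes by at most 0.097 on the log2 scale (unscaled CPM, cluster 10). Recovery of known differences was simulated for cluster 10 alone, with the same relative spread for every gene and no litter effect. What could be detected in the real counts of any cluster was not tested.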
